A study of Drepana arcuata with 6 samples.

Results

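The 83 genes described here stood far above their level in the other 2 late instar pools in a single pool, late instar replicate 2, of the masked birch caterpillar, Drepana arcuata. They are 83 of 116079 Trinity genes, a Trinity gene being a group of transcripts (its isoforms) that the assembler Trinity built from shared sequence. A gene was taken when late replicate 2 held at least 10 CPM (the count as a share of the library total, scaled to counts per 1000000) and more than 10 times the higher of late replicates 1 and 3. The members were thus chosen by their levels in the 3 late libraries, so the excess in late replicate 2 is a description and carries no test. The rule also left out genes confined to early instars, 1 Trinity read cluster and the genes the study names, and none of these met the 2 limits, so that no gene was dropped.

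Late instars were solitary larvae of instars IV and V, with 5 larvae in each of 3 pools, 3 of instar IV and 2 of instar V. Early instars were social larvae of instars I and II, with 20 larvae in each of 3 pools. All larvae were offspring of 1 female, were fed on paper birch and were frozen whole. No treatment or mutant was used, and stage was the compared factor.

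A caterpillar grows through instars that are separated by moults, and whole-larva RNA mixes the gut, fat body, epidermis, muscle, silk glands and other tissues. A pool gives the average over its larvae, weighted by the RNA each gave, so a gene high in 1 larva of the pool and a gene moderately high in all 5 can give the same value. In such bulk RNA, fewer cells of a type and less RNA per cell cannot be told apart. The study's transcript annotation and assembly sequences were not used here, the count tables pair no gene names with these IDs, and none of the 83 genes is among those named in the paper. The members therefore carry their Trinity IDs with no role, the tissue label was not checked against marker genes, and no sequence is shown.

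Depth ran from 15109224 to 35571272 counts in late and from 11177800 to 46307057 in early libraries, and late replicate 2 held 28276799. A level of 1 CPM was thus 28.3 counts in late replicate 2 and between 11.2 and 46.3 counts elsewhere. Late replicate 2 stood apart from the other late libraries also without the members. Pearson's r of log2(CPM + 1), across 22141 genes that are not independent replicates, was 0.937 with late replicate 1 and 0.956 with late replicate 3, against 0.983 between late replicates 1 and 3. Without the members the 3 values were 0.946, 0.962 and 0.983. The biological coefficient of variation (BCV, the spread between replicates that edgeR estimates) was 0.341 in late instars with all genes and 0.319 without the members. Without late replicate 2 it was 0.212.

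The same limits turned on each library within its stage showed how far this pool differed. The 83 genes above 10 times both other late libraries compare with 17 such genes in late replicate 1, 1 in late replicate 3, 1 in early replicate 2 and 0 in early replicates 1 and 3. With a limit of 5 times, late replicate 2 had 118 such genes, late replicate 1 had 23, and no other library had more than 4. In the opposite direction, 88 genes in late replicate 2 were under 10% of the lower of the other 2 late libraries, which had to hold at least 10 CPM each.

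**Figure D1:**
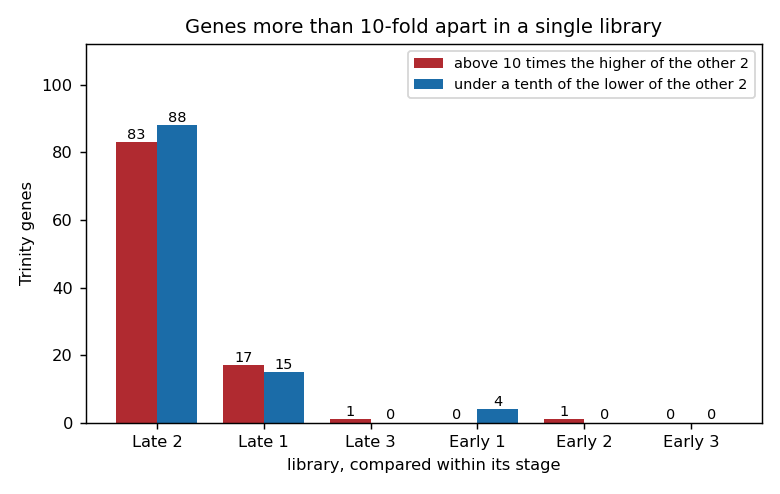
The bars count Trinity genes (y axis) that in one library (x axis) were at 10 CPM or more and above 10 times the higher of the other 2 libraries of the stage, in red, or under 10% of the lower of these, in blue. Late replicate 2 had 83 and 88 such genes, late replicate 1 had 17 and 15, and no other library had more than 4.

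Together the members took 1.48% of the counts of late replicate 2, against 0.0209% and 0.0365% in late replicates 1 and 3. In early replicates 1, 2 and 3 they took 0.0825%, 0.0493% and 0.0356%. The level of a member in late replicate 2 ran from 10.5 to 1817 CPM with a median of 60.1 CPM. The medians were 0.984 and 1.46 CPM in late replicates 1 and 3, and 1.62, 1.43 and 1.05 CPM in early replicates 1, 2 and 3. In late replicate 2, 33 of the 83 members reached 100 CPM. At 10 CPM or more were 4 members in late replicate 1, 7 in late replicate 3 and 17, 11 and 11 in early replicates 1, 2 and 3. The ratio of late replicate 2 to the higher of the other late libraries had a median of 32.3, was at most 20 in 26 members and was above 100 in 22.

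**Figure D2:**
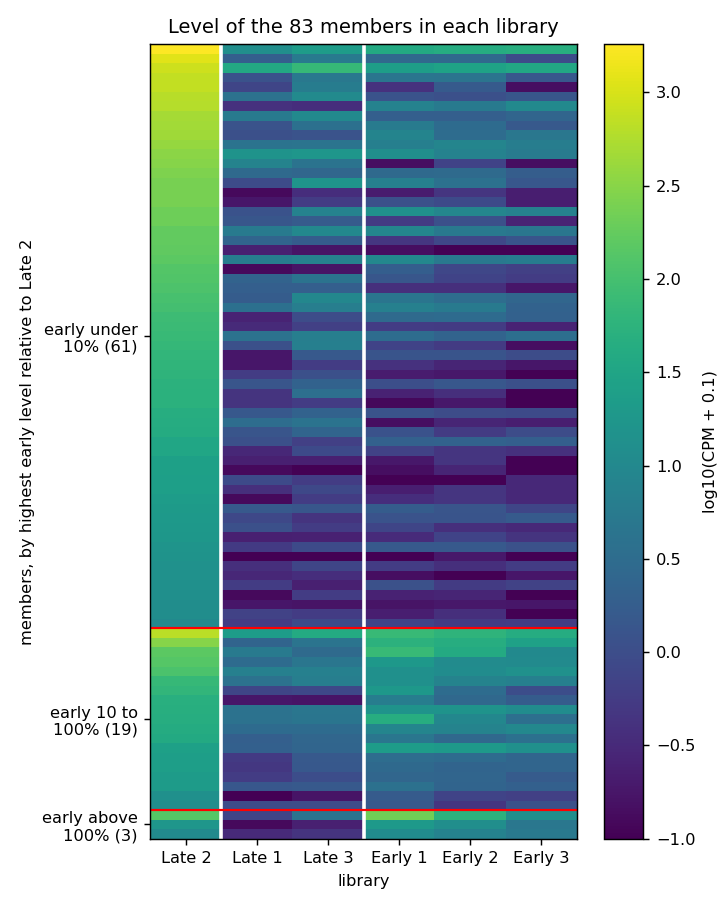
Each row is 1 of the 83 members and each column a library, with colour for log10(CPM + 0.1). White lines part late replicate 2, the other late libraries and the early libraries. Red lines part members whose highest early level was under 10% of late replicate 2 (61), 10 to 100% of it (19) or above it (3), and members are sorted within a class by late replicate 2.

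The 5 members with the highest CPM in late replicate 2 held 35.7% of the summed CPM of all 83 there. TRINITY_DN16164_c2_g2 had 1817 CPM in late replicate 2, against 12.8 and 22.2 CPM in late replicates 1 and 3 and 39.0, 42.5 and 47.3 CPM in early replicates 1, 2 and 3. Its early libraries lay close together, and all 3 were above late replicates 1 and 3. TRINITY_DN15480_c1_g1 had 1171 CPM in late replicate 2, against 1.74 and 5.49 CPM in late replicates 1 and 3 and 2.68, 2.68 and 0.839 CPM in early replicates 1, 2 and 3. TRINITY_DN13984_c0_g1 had 862 CPM in late replicate 2, against 37.8 and 71.5 CPM in late replicates 1 and 3 and 23.0, 28.5 and 35.8 CPM in early replicates 1, 2 and 3. This gene was thus well measured in every library, and all 3 late libraries were above the early ones.

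TRINITY_DN17417_c0_g1 had 728 CPM in late replicate 2, against 1.10 and 4.96 CPM in late replicates 1 and 3 and 4.43, 4.20 and 1.34 CPM in early replicates 1, 2 and 3. TRINITY_DN15040_c2_g1 had 725 CPM in late replicate 2, against 0.675 and 6.02 CPM in late replicates 1 and 3 and 0.302, 1.52 and 0.0420 CPM in early replicates 1, 2 and 3. In both genes late replicates 1 and 3 overlapped the early range. Levels of different genes can be set against each other only per length, as TPM (an abundance in transcripts, which divides by length). By the deposited TPM summed over isoforms, the gene with the highest level in late replicate 2 was TRINITY_DN15076_c4_g1, seventh by CPM and named after its values were seen, with 1197 TPM, against 7.74 and 22.2 TPM in late replicates 1 and 3 and between 1.55 and 2.17 TPM in early libraries. TRINITY_DN16164_c2_g2 followed with 1138 TPM, and TRINITY_DN15480_c1_g1, second by CPM, was eleventh with 178 TPM. In TPM, 76 of the 83 members were also above 10 times both other late libraries.

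Some members were nearly silent outside late replicate 2. TRINITY_DN15733_c0_g1 had 4664 counts in late replicate 2, 5 and 1 counts in late replicates 1 and 3, and 2, 0 and 0 counts in early replicates 1, 2 and 3. TRINITY_DN20795_c0_g5 had 745 counts in late replicate 2, 1 and 0 counts in late replicates 1 and 3, and 2, 2 and 0 counts in early replicates 1, 2 and 3. TRINITY_DN40214_c0_g1 had 440 counts in late replicate 2, 0 counts in late replicates 1 and 3, and 1 count in early instars, in replicate 2. Against a floor of 3 counts over late replicates 1 and 3, its level in late replicate 2 was at least 263-fold higher, a bound that covers counting error only. All 3 have 1 isoform. In all, 2 members had 0 counts in late replicate 1 and 2 in late replicate 3, while 2, 3 and 9 had 0 counts in early replicates 1, 2 and 3.

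The limits of the rule cut through a continuous range. Just inside the 10-fold limit were TRINITY_DN13256_c0_g1, with 45.3 CPM in late replicate 2 and 3.88 and 4.50 CPM in late replicates 1 and 3, and TRINITY_DN14156_c2_g4, with 68.0 CPM in late replicate 2 and 1.01 and 6.75 CPM in late replicates 1 and 3. Just outside it were TRINITY_DN18058_c4_g1, with 698 CPM in late replicate 2 and 57.4 and 70.5 CPM in late replicates 1 and 3, and TRINITY_DN17825_c2_g1, with 28.5 CPM in late replicate 2 and 3.09 and 3.04 CPM in late replicates 1 and 3. Just above the minimum of 10 CPM in late replicate 2 were TRINITY_DN20987_c0_g5 with 10.5 CPM and TRINITY_DN13155_c0_g1 with 10.8 CPM. Just under it were TRINITY_DN14944_c5_g1 with 9.51 CPM and TRINITY_DN16712_c0_g1 with 9.23 CPM.

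**Figure D3:**
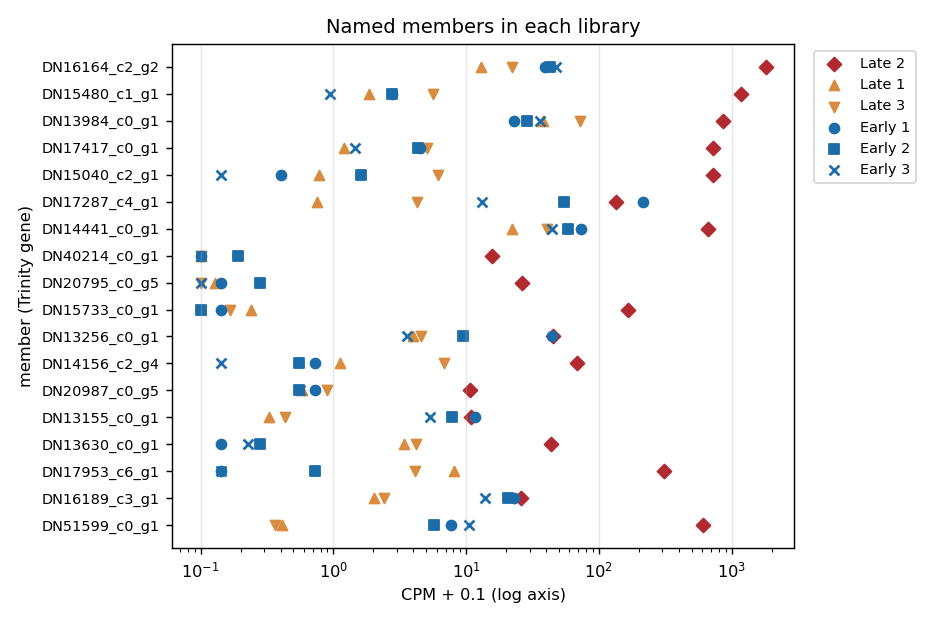
The CPM + 0.1 (log axis) of the 18 members named by rule is shown in each library, as a red diamond for late replicate 2, orange triangles for late replicates 1 and 3 and blue symbols for early libraries. Late replicate 2 is the highest library in every row except TRINITY_DN17287_c4_g1 and TRINITY_DN13155_c0_g1, where early replicate 1 is higher.

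Early instar levels, which did not enter the 2 limits, divided the members. In 61 of 83 the highest early library was under 10% of late replicate 2, in 19 it was from 10% to 100%, and in 3 it was above late replicate 2. These classes divide by the late replicate 2 level, which the rule used, and were not counted in other genes. The median level in late replicate 2 was 75.1 CPM in the first class, 45.3 CPM in the second and 17.3 CPM in the third. The median of the early means was 0.753, 8.73 and 12.5 CPM in these classes. Both orders follow in part from how the classes were made, and the third class holds only 3 members. Over all members, the early mean was under 1 CPM in 36 and at 10 CPM or more in 12.

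In 3 members an early library was above late replicate 2. TRINITY_DN17287_c4_g1, which had the highest early mean of all members, had 135 CPM in late replicate 2, against 0.647 and 4.17 CPM in late replicates 1 and 3. In early replicates 1, 2 and 3 it had 216, 54.5 and 13.0 CPM, a mean of 94.5 CPM. Its early libraries thus spread over 16.7-fold, with replicate 1 the highest. TRINITY_DN12628_c0_g2 had 17.3 CPM in late replicate 2, against 0.0281 and 0.132 CPM in late replicates 1 and 3, and 19.8, 12.8 and 4.87 CPM in early replicates 1, 2 and 3. TRINITY_DN13155_c0_g1 had 10.8 CPM in late replicate 2, against 0.225 and 0.331 CPM in late replicates 1 and 3, and 11.5, 7.78 and 5.24 CPM in early replicates 1, 2 and 3. In all 3 genes late replicate 2 lay within the early range, and late replicates 1 and 3 lay under it.

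Among the 19 members of the middle class, TRINITY_DN14441_c0_g1 had the second highest early mean of all members. It had 668 CPM in late replicate 2, against 22.1 and 40.8 CPM in late replicates 1 and 3 and 72.8, 58.4 and 43.8 CPM in early replicates 1, 2 and 3. TRINITY_DN16189_c3_g1 had 25.8 CPM in late replicate 2, against 1.91 and 2.32 CPM in late replicates 1 and 3 and 22.8, 20.4 and 13.7 CPM in early replicates 1, 2 and 3. TRINITY_DN13256_c0_g1, with 45.3 CPM in late replicate 2, had 44.6, 9.39 and 3.48 CPM in early replicates 1, 2 and 3. In this gene late replicate 2 was level with early replicate 1 alone, and early replicate 3 was under late replicates 1 and 3.

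**Figure D4:**
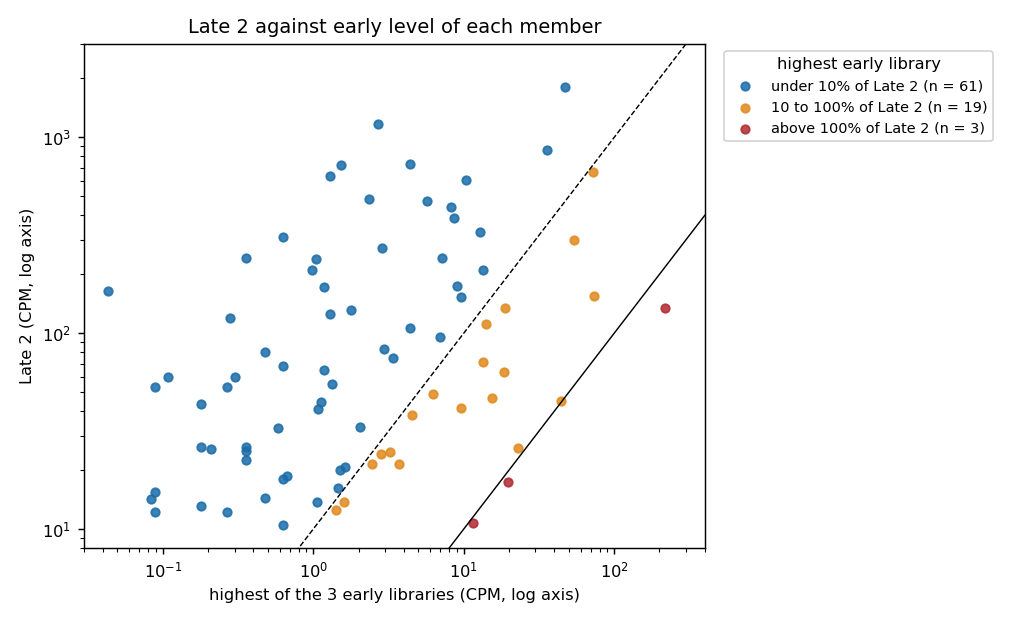
Each point is a member, with the highest of its 3 early libraries on the x axis and late replicate 2 on the y axis (CPM, log axes). On the solid line both are equal and on the dashed line late replicate 2 is 10 times higher, so that the 61 blue points lie above the dashed line, the 19 orange ones between the lines and the 3 red ones below the solid line.

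The order of the libraries that the rule did not set against each other was uneven. Late replicate 3 was above late replicate 1 in 63 of 83 members (75.9%), against 37.1% of the 10588 other genes with at least 10 CPM in late replicate 2. The median ratio was 1.66 over the 80 members with counts in both, against 0.935 in the other genes. In members whose mean over late replicates 1 and 3 was from 1 to 10 CPM, late replicate 3 was above in 34 of 40 (85%), against 51.9% of 553 other genes at that level. Of the 61, 19 and 3 members in the early classes, 45, 15 and 3 had late replicate 3 above late replicate 1. These are descriptions of 2 libraries, with no replicate behind the difference.

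Early replicate 1 was above early replicate 3 in 64 of 83 members (77.1%), against 57.2% of the other genes. The median ratio was 1.66 over the 73 members with counts in both, against 1.06 in the other genes. Early replicate 1 was the highest early library in 49 members, replicate 2 in 22 and replicate 3 in 12. Of the 61, 19 and 3 members in the early classes, 44, 17 and 3 had early replicate 1 above early replicate 3. The median level in early replicates 1, 2 and 3 was 1.04, 0.716 and 0.545 CPM in the first class and 13.4, 7.87 and 3.61 CPM in the second.

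**Figure D5:**
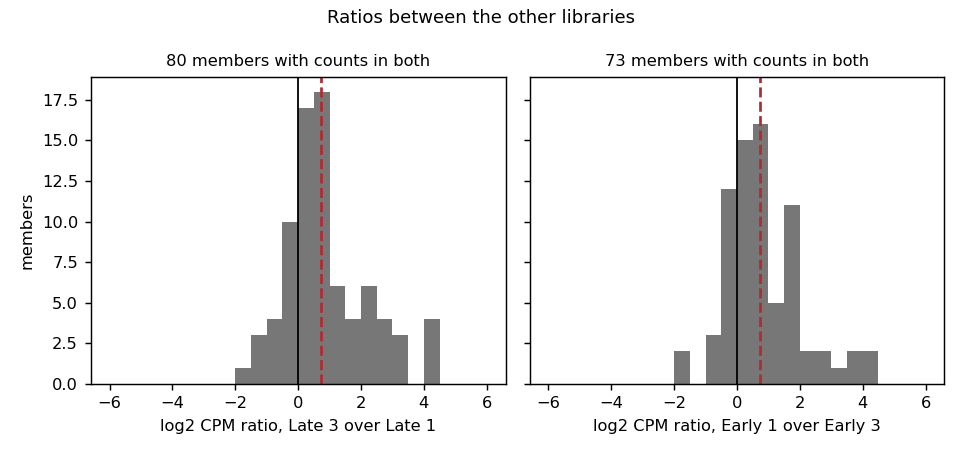
The bars count members (y axis) by the log2 ratio of their CPM in late replicate 3 over late replicate 1 (left, 80 members) and in early replicate 1 over early replicate 3 (right, 73 members). The solid line marks equal levels and the dashed red line the median, which is a ratio of 1.66 in both.

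The members also spread more between early pools than other genes with an early mean in the same broad range. Over the 35 members with an early mean from 1 to 10 CPM, the highest early library was at the median 1.8 times the lowest, against 1.5 times over 848 other genes of that range with at least 10 CPM in late replicate 2. The early BCV was 0.501 over the 62 members that passed the filter on low counts below, against 0.243 over the other genes that passed it, whose levels were not matched. Levels inside the range of 1 to 10 CPM were not matched either. No test was made of these differences, and the part of counting noise in them was not tested.

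Late and early instars were compared with edgeR's quasi-likelihood test, run on the counts summed over isoforms of all 22132 Trinity genes with more than 1 CPM in at least 2 libraries. A gene was called where its p, adjusted by Benjamini-Hochberg, was no higher than 0.001 and its log2 fold change (late minus early) was 2 or more in size. Only 62 of the 83 members passed the filter. In the other 21, every library except late replicate 2 was at most 0.993 CPM, while late replicate 2 held from 10.5 to 241 CPM. Because late values chose the members, their calls are a description. The rule asks for 1 late pool far above the other 2, which raises both the late mean and the late spread. Both bear on the fold changes, p-values and calls of the members, so nothing is read from their difference from all genes.

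None of the 62 members was called, and over all genes the test called 4.87% higher and 3.96% lower in late instars. Of the members, 33 (53.2%) had an unadjusted p under 0.05, against 40.3% of all tested genes. The smallest adjusted p of a member was 0.00511 (edgeR quasi-likelihood). The log2 fold change had a median of 3.31 over the 62 members, against -0.0027 over all tested genes, and ran from -1.08 to 9.54. TRINITY_DN16164_c2_g2, with 617 ± 1039 CPM in late and 42.9 ± 4.17 CPM in early instars (SD, n = 3 each), had a log2 fold change of 3.85 ± 1.66 (SE) by the edgeR quasi-likelihood test, with an adjusted p of 0.122. edgeR's exact test called 8 members higher in late instars (7.28% of all genes) and 0 lower (6.24%). DESeq2 called 1 higher (7.32% of all genes) and 0 lower (5.94%), and it gave no adjusted p to 68 genes, of which 51 were members.

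Without late replicate 2 the comparison set late replicates 1 and 3 against the 3 early pools, and 57 members passed the filter. Of these, 2 were called higher in late instars, where the test called 6.8% of all genes, and 6 were called lower, where it called 4.58%. The log2 fold change had a median of -0.82 over these members and -0.02 over all genes, and it was negative in 34 of the 57 (59.6%), against 51.3% of all genes. The rule kept late replicates 1 and 3 low against replicate 2, so nothing is read from these counts. With all libraries, 62 members passed the filter. In 29 of these (46.8%) late replicates 1 and 3 were both below all early libraries, against 28.2% of all tested genes. They were both above all early libraries in 15 (24.2%), against 31.7% of all genes. The rule bears on these shares too, so nothing is read from them.

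The 2 members called higher in late instars without late replicate 2 had low early levels. Late replicates 1 and 3, which the rule used, are the whole late group of this fit. The adjusted p-values of single members from it are thus a description. TRINITY_DN13630_c0_g1 had 43.5 CPM in late replicate 2 and 3.29 and 4.10 CPM in late replicates 1 and 3, against 0.0432, 0.179 and 0.126 CPM in early replicates 1, 2 and 3. In edgeR's quasi-likelihood test its log2 fold change was 5.23 ± 0.53 (SE) without late replicate 2, at an adjusted p of 8.36e-05, and 7.50 with all libraries, at an adjusted p of 0.00511. TRINITY_DN17953_c6_g1 had 309 CPM in late replicate 2 and 7.98 and 4.04 CPM in late replicates 1 and 3, against 0.0432, 0.626 and 0.0420 CPM in early replicates 1, 2 and 3. In the same edgeR test its log2 fold change was 5.35 ± 0.80 (SE) without late replicate 2, at an adjusted p of 0.000804, and 9.54 with all libraries, at an adjusted p of 0.0133. In both genes every late library was above every early one.

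In the other direction, the members with the smallest p were TRINITY_DN16189_c3_g1, described above, and TRINITY_DN51599_c0_g1. The rule held late replicates 1 and 3 low and these members were picked by their p, so their values too are a description. TRINITY_DN51599_c0_g1 had 608 CPM in late replicate 2 and 0.309 and 0.265 CPM in late replicates 1 and 3, against 7.64, 5.64 and 10.4 CPM in early replicates 1, 2 and 3. Its log2 fold change in edgeR's test was -4.80 ± 0.44 (SE) without late replicate 2, at an adjusted p of 4.25e-05, and 4.68 ± 2.31 with all libraries, at an adjusted p of 0.171. Its direction thus differed between the fits with and without this pool. For TRINITY_DN16189_c3_g1 the edgeR values were -3.23 ± 0.29 (SE) without late replicate 2, at an adjusted p of 3.85e-05, and -0.90 with it, at an adjusted p of 0.5. The calls also took in TRINITY_DN12628_c0_g2 and TRINITY_DN13155_c0_g1, with -7.62 and -4.99 without late replicate 2 and -1.05 and -1.08 with it. The last pair were TRINITY_DN15255_c1_g1 and TRINITY_DN13068_c0_g1, with -3.78 and -5.48 without late replicate 2 but 1.29 and 2.23 with it, the opposite direction. In all, the sign differed between the fits with and without late replicate 2 in 29 of the 57 members tested in both. The rule set late replicate 2 far above the other late libraries, so leaving it out lowers the late mean of every member. This count was not made over all genes, and nothing is read from it.

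In their assembly the members differed from the 10588 other genes at 10 CPM or more in late replicate 2. They had a median of 3 isoforms and a longest isoform of 1270 bp, against 5 isoforms and 2140 bp in the other genes. A single isoform was assembled for 21 members (25.3%), against 13.3% of the other genes. The leading isoform in late replicate 2 held a median of 95.9% of the count of a member, against 75.5%. A single isoform holds the whole count of its gene, so this difference follows in part from the isoform numbers. Members and other genes were not matched on their counts over all libraries. RSEM divides a fragment between the isoforms it maps to, so these shares are estimates.

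TRINITY_DN17417_c0_g1, with 20 isoforms, had its count spread over many, and the leading one held 18.3%. Where each early library held at least 20 counts of a member with several isoforms, the isoform that led in late replicate 2 also led in all 3 early libraries in 19 of 32 (59.4%), against 71.3% of 8773 other genes.

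The members came from 74 read clusters, the DN numbers of the IDs, within which Trinity found shared sequence. In 7 clusters more than 1 gene was a member, 16 members in all, and these may share reads and are not independent of each other. Cluster DN15040 held TRINITY_DN15040_c2_g1, TRINITY_DN15040_c1_g1 and TRINITY_DN15040_c2_g2, with 725, 472 and 52.9 CPM in late replicate 2 and at most 6.02 CPM in late replicates 1 and 3. Cluster DN15415 also held 3 members, with 172, 44.7 and 40.9 CPM in late replicate 2 and at most 2.28 CPM in late replicates 1 and 3. In the clusters that hold members, 41 other genes reached 10 CPM in late replicate 2, and 6 of them (14.6%) were above 2 times both other late libraries, against 3.58% of the 10588 other genes.

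None of the 27 Trinity genes that the study names met the rule. The takeout gene, of a family of juvenile hormone binding proteins, had 78.1 CPM in late replicate 2, against 28.1 and 25.3 CPM in late replicates 1 and 3 and 363, 158 and 156 CPM in early replicates 1, 2 and 3. Late replicate 2 was under 50% of the lower of the other late libraries in 5 of the 27, the urbain, glucose dehydrogenase, serine protease H51, mucin-5AC-like and aminopeptidase N-like genes. The mucin gene, named for secreted glycoproteins, had 16.1 CPM in late replicate 2, against 205 and 158 CPM in late replicates 1 and 3. The serine protease H51 gene had 6.97 CPM in late replicate 2, against 80.8 and 50.9 CPM. Their part in the excess of the 83 members was not tested.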

How the data were processed

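Whole-larva RNA of 6 pools was sequenced as paired-end reads, in 3 late and 3 early instar libraries grouped by the stage in their labels. The authors quality-trimmed the reads (Trimmomatic 0.36, minimum length 50 bp), assembled all libraries together with Trinity and estimated abundance with RSEM (version and aligner not given in the sources used here). They deposited expected counts per transcript, without normalization, and TPM, computed within each library from counts and effective lengths. FPKM and isoform percentages were not used. No genome entered, so genes have no coordinates.

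Here, expected counts were summed per Trinity gene, and the members were found on CPM from library totals. For the stage test the sums were rounded to whole numbers and fitted with edgeR 4.0.16 in R 4.3.3 (TMM, estimateDisp, glmQLFit, glmQLFTest, no covariate). A standard error (SE) is the size of the log2 fold change divided by the root of its F value. The alternatives were RLE factors, edgeR's exact test, DESeq2 1.42.0, no filter, an adjusted p of 0.05, the replicate number as a block, each library left out, and other limits or scales for the rule. The stage test alone was also run on simulated data, with changed genes shifted alike in all libraries of a stage. The simulation covered neither the rule nor a gene raised in a single pool.

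The members, classes and naming rule were chosen with earlier results of these data known. The rule names the 5 members with the most CPM in late replicate 2, the 3 with the highest early mean, the 3 with the fewest counts elsewhere, the 2 with the smallest p in each direction without late replicate 2, and the 2 genes on each side of each limit. Members named beyond it were chosen after their values were seen. Pools of each stage are the replicates. Intervals of single libraries cover counting error only.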

Additional observations from a re-analysis of the deposited data

How the results depend on the processing

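The number of members, 83, was 56 with TPM in place of CPM, 118 with a limit of 5 times, 57 with 20 times, 95 with 5 CPM, 67 with 20 CPM and 84 with TMM-scaled totals. It was 84 without late replicate 1 and 127 without late replicate 3. Over all genes the stage test called 1953, and it called 2936 by DESeq2, 2991 by the exact test, 3828 with no filter and 3128 at an adjusted p of 0.05. With a library left out it called from 1026, without early replicate 1, to 2487, without late replicate 2. Without early replicates 2 and 3 it called 1212 and 1159. Members called higher in late instars numbered 0, and 1 by DESeq2, 8 by the exact test, 65 of 83 with no filter (1.96% of 114457 genes), 16 of 62 at an adjusted p of 0.05 (7.74% of all genes) and from 0 to 2 with a library left out. By DESeq2, 51 of the 62 members had no adjusted p and could not be called. The fit with no filter took an infinite prior degree of freedom, against 3.98 with the filter, so no gene kept its own estimate of how far it varies. Members called lower numbered 0, and from 0 to 6 with a library left out. The 2 and the 6 were both without late replicate 2.

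With the replicate block, 2 members were called higher (4.48% of all genes) and 1691 genes were called in all. Same-numbered late and early libraries deviated together with r = 0.15, 0.04 and 0.22 for numbers 1, 2 and 3, and every library correlated best with its own number, but the labels name no shared litter or day, so the numbers were not taken to pair the pools.

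Of the 62 members in the stage test, 14 were named by rule and followed through every alternative that gave them an adjusted p. DESeq2 gave none to some of them. Among these 14, log2 fold changes that changed sign also in a fit of all libraries were those of TRINITY_DN13256_c0_g1 (-0.05 in the main fit, 0.0066 with RLE factors, 0.0187 by DESeq2, and from -2.22 to 1.45 with a library left out) and TRINITY_DN51599_c0_g1 (-2.31 with the replicate block and from -4.80 to 5.27 with a library left out). Others changed sign only with a library left out, where the value ran from -1.36 to 4.43 in TRINITY_DN16164_c2_g2, from -0.21 to 6.82 in TRINITY_DN17417_c0_g1, from -0.93 to 2.62 in TRINITY_DN14441_c0_g1 and from -5.42 to 0.42 in TRINITY_DN17287_c4_g1. Except where stated, the cause of these shifts was not tested.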
